A study of Mus musculus with 28 samples.

Results

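Interferon response genes were followed as 1 list of 38 mouse genes through primary mammary tumors, lung metastases, the normal tissue of both sites and the cultured tumor cells. The list is one of gene names with no cutoff on a measured value, but it was drawn up with earlier results of these data known. Each gene was read from the probe set that the array annotation assigns to that gene alone, and a gene with several of them was read from whichever had the highest mean in the 26 tissue samples. Of the 38 genes, 36 could be read, out of 18193 genes read in all. Isg15 and Ifi44 were not analysed here, because Isg15 shares its probe set with another gene symbol and Ifi44 had no probe set listed for it.

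Interferons are secreted proteins that warn cells of virus. Type I interferons bind the Ifnar1 and Ifnar2 receptor and act through Jak1, Tyk2, Stat2 and Irf9, whereas interferon gamma binds Ifngr1 and Ifngr2, acts through Jak1 and Jak2 and induces Irf1. The induced genes include proteins that block viral RNA and viral entry, sensors of foreign RNA, guanylate-binding and immunity-related GTPases that attack vacuoles of intracellular microbes, and chemokines that call in T and NK cells. In tumors the same genes can be switched on in the cancer cells and in the immune and vascular cells around them.

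Whole tissue RNA was labelled and hybridized to Affymetrix arrays: 11 samples of primary tumor (PT), 9 of lung metastasis (LungMets), 3 of normal mammary gland (NMG) and 3 of normal lung parenchyma (NL). The mice were female Balb/C nude mice, which lack a thymus and so have few mature T cells, and the tumors came from JygMC(A), a mouse mammary carcinoma line given at 50000 cells into the 4th mammary gland. PT were taken at day 30 and LungMets at day 50, while NMG and NL came from healthy nude mice that received no cells. The methods give an age of 6 to 8 weeks for these healthy mice and 8 weeks for the animals used. They do not say whether the 8 weeks are the age at injection. If they are, PT and LungMets came from older mice than NMG and NL. A cell line was also measured, on 1 array as a monolayer culture and on 1 as 3D spheres. The labels call the tissue samples biological replicates without naming the animal, and the methods state that 1 or 2 fragments per lesion type came from 8 mice, so some PT and some LungMets may share a mouse and the p-values measure the spread between samples. The injected cells are named in the methods as JygMC(A)-GFP/Luc, with a reporter, and the labels give the cultured samples only as cell line. RNA of tissue and RNA of cultured cells were extracted with different reagents.

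All values are log2 of probe set signal, so that a difference of 1 is a 2-fold change. Array medians lay between 5.00 and 5.18. The labels give 4 date batches, the first with 4 PT, 4 LungMets and both cell line arrays, the second with 7 PT and 5 LungMets, and 1 each for NL and NMG, so for the normal tissues batch and tissue cannot be told apart. Y-linked genes, which female tissue lacks, reached at most 4.12, and this was used as the level of absent genes. The mean of 10 lung epithelium markers lay at 12.34 to 12.42 in NL, but it was 10.89 in PT replicate 5 against a PT median of 5.52, and 6.94 in LungMets replicate 9 against a LungMets median of 11.04. PT replicate 5 was also the lowest PT for adipocyte markers (4.37) and fibroblast markers (9.10) and the highest for endothelium markers (8.17). LungMets replicate 9 was the highest LungMets for adipocyte and fibroblast markers (6.83 and 10.94) and the lowest for endothelium markers (6.66). These 2 arrays were kept in the groups that their labels give. For the lung markers NMG replicate 1 was at 7.84, above the other 2 NMG. The adhesion and keratin genes read for the tumor cells (Epcam, Cdh1, Cdh2, Krt8 and Krt18) averaged 6.88 in the monolayer and 6.40 in the spheres, below the lowest PT at 7.84.

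Promoters of 5 members named below are shown first, because they carry the sequence that the type I interferon factor complex binds. Igtp, which is among them, was called in none of the comparisons below. They cover 250 bases before to 50 after the transcription start and come from RefSeq on build GRCm38.p6. Capitals mark the interferon-stimulated response element, searched as GAAA, then any bases NN, then GAAA on both strands with overlaps allowed. Ifit1 lies at chr19:34640639-34640938 on the plus strand, Ifit3 at chr19:34583279-34583578 on the plus strand, Rsad2 at chr12:26456403-26456702 on the minus strand, Cxcl10 at chr5:92348840-92349139 on the minus strand and Igtp at chr11:58199306-58199605 on the plus strand.
Ifit1: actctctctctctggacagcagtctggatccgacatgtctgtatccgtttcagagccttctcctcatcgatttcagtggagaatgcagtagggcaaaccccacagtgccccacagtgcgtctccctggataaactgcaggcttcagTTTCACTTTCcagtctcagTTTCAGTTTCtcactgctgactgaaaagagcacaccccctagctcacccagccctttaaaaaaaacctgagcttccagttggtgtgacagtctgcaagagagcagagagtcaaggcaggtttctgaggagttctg
Ifit3: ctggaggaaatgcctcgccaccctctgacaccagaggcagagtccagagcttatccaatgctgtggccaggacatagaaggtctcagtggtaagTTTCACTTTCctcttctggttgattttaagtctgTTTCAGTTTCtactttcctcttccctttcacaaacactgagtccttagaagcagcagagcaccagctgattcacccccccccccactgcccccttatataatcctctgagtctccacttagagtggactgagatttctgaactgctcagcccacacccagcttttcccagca
Rsad2: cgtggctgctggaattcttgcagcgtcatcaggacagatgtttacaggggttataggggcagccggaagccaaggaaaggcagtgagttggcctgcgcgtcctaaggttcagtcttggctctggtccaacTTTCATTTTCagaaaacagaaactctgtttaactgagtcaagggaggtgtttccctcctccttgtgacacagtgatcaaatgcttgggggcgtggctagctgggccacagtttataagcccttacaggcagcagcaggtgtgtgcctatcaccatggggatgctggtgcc
Cxcl10: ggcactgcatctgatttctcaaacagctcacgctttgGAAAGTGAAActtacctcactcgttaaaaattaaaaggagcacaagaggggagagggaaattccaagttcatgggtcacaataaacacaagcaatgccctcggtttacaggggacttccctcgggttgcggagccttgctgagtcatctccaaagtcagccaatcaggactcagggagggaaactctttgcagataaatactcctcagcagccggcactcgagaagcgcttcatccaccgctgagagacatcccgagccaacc
Igtp: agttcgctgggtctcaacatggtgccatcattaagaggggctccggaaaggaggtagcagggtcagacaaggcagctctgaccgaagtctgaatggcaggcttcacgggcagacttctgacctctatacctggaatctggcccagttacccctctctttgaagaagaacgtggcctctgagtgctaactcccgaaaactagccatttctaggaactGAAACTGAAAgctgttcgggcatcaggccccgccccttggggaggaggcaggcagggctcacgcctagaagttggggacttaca
The element began 104 and 85 bases before the start in Ifit1, 156 and 122 bases before it in Ifit3, 120 bases before it in Rsad2, 213 bases before it in Cxcl10 and 34 bases before it in Igtp. A promoter entry was found for 29 of the 38 members, and 15 of them (51.7%) held the element, against 3.99% of the 27025 genes of the table. The others with the element were Bst2, Eif2ak2, Gbp2, Gbp3, Ifih1, Irgm1, Irgm2, Oas3, Stat2 and Isg15, the last of which was not read on the arrays. The gamma-activated site, searched as TTCNNNGAA, which reads the same on both strands, was found in 7 members (24.1%) against 9.55% of all genes, and Bst2, Eif2ak2, Igtp and Irgm2 held both motifs, which overlap in Bst2. These matches describe the letters in a window of 300 bases and do not show binding. No entry was found for Zbp1, Parp9, Oas2, Iigp1, Usp18, Parp14, Rtp4, Dhx58 and Mx1.

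**Figure D1:**
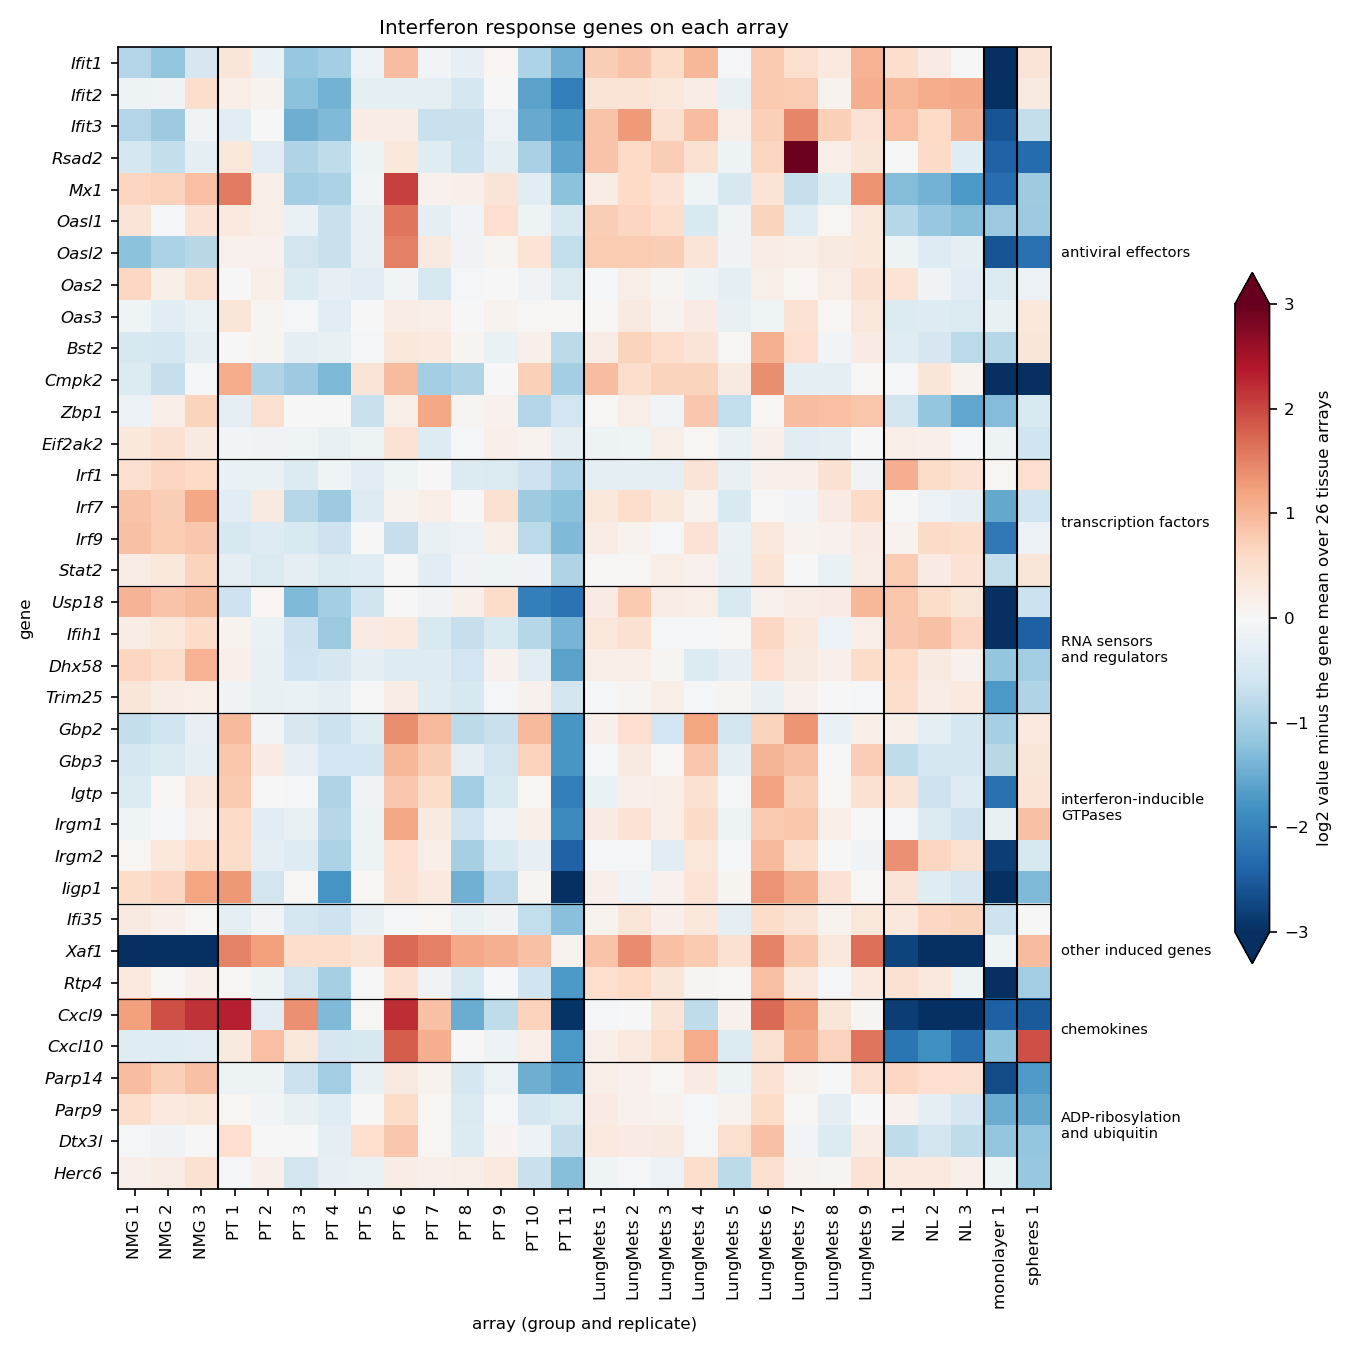
Log2 value of each of the 36 interferon response genes (y axis, grouped by role) on each of the 28 arrays (x axis), minus the mean of that gene over the 26 tissue arrays, so that red is above and blue below that mean. PT replicate 11 and the monolayer are blue for most genes, and the LungMets columns are more even than the PT columns.

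The first question was how the interferon genes differ between lung metastases and primary tumors. The labels do not link a metastasis to its own primary tumor, so the groups were compared without pairing. PT were taken at day 30 and LungMets at day 50. The methods state that primary tumors were removed by day 30 after injection, to parallel clinical practice. LungMets would then come from mice without their primary tumor. Site, day and this removal cannot be told apart in this comparison. In LungMets 13 of 36 members were called higher than in PT and 0 were called lower, where 9.03% of all genes were called higher and 6.13% lower (limma, Benjamini-Hochberg adjusted p under 0.05 over all genes). The median difference of the members was 0.45, against -0.02 over all genes, and 35 of 36 differences were above 0. The 13 called members were Ifit1, Ifit2, Ifit3, Rsad2, Bst2, Irf9, Stat2, Usp18, Ifih1, Dhx58, Ifi35, Rtp4 and Parp14. By role these were 5 of 13 antiviral effectors, 2 of 4 transcription factors, 3 of 4 RNA sensors and regulators, 1 of 4 genes of ADP-ribosylation and ubiquitin, and 2 of 3 other induced genes.

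Ifit3, which with Ifit1 and Ifit2 binds foreign RNA ends and blocks their translation, changed most. Its values were 5.72, 6.80 and 7.70 (lowest, median and highest) in PT and 7.64, 8.20 and 8.93 in LungMets. Of the 9 LungMets, 8 lay above every PT, and only LungMets replicate 5 lay within the PT range. The difference was 1.45 (SE 0.245, adjusted p = 0.000288), a fold of 2.74. Ifit2 rose by 1.11 and Ifit1 by 0.98 (adjusted p = 0.00358 and 0.00507), and their groups overlapped. Rsad2, or viperin, makes a nucleotide that stops viral RNA synthesis. Its values were 6.52, 7.75 and 8.46 in PT and 7.95, 8.71 and 11.04 in LungMets, and 7 of 9 LungMets lay above every PT. The difference was 1.22 (SE 0.288, adjusted p = 0.00511), and the other probe sets of Rsad2 moved the same way.

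Among the regulators, Usp18, which removes Isg15 from proteins and dampens the type I receptor, rose by 0.95 (SE 0.283, adjusted p = 0.0247). The helicases Ifih1 and Dhx58, which sense double-stranded RNA or tune that sensing, rose by 0.66 and 0.56. Irf9 and Stat2, both parts of the type I factor complex, rose by 0.60 and 0.37. The calls of Dhx58 and Stat2 each held in 33 of 39 settings. Both were lost with the mean of all probe sets and with quantile normalization once more. The other probe set of Stat2 had means of 4.78 in PT and 4.85 in LungMets. Those of Dhx58 had 3.89 and 2.91 in PT and 3.90 and 2.86 in LungMets. Bst2, or tetherin, holds budding virus at the cell surface and had values of 8.02, 8.80 and 9.12 in PT and 8.72, 9.17 and 9.85 in LungMets, a rise of 0.45 (adjusted p = 0.0227). Ifi35, an interferon-induced leucine zipper protein, rose by 0.59 (adjusted p = 0.00354), from 8.81, 9.85 and 10.13 in PT to 9.78, 10.38 and 10.61 in LungMets. For both genes the groups overlapped, with 5 LungMets above every PT for Bst2 and 8 for Ifi35.

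Of the 6 interferon-inducible GTPases, which are induced mainly by interferon gamma, 0 were called, although all 6 differences were above 0 (0.34 to 0.89). Gbp2, the guanylate-binding protein whose probe set had the highest mean of this group, had values of 8.30, 9.68 and 11.43 in PT and 9.46, 10.23 and 11.37 in LungMets. The difference of 0.34 had a 95% confidence interval from -0.36 to 1.03, and the LungMets lay within the PT range. The chemokines Cxcl9 and Cxcl10, ligands of Cxcr3 on T and NK cells, differed by 0.28 and 0.46 and were not called. Irf1 and Irf7 differed by 0.34 and 0.53 and Trim25 by 0.18, with no call. Eif2ak2, the kinase PKR, had the 1 difference below 0, at -0.01.

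**Figure D2:**
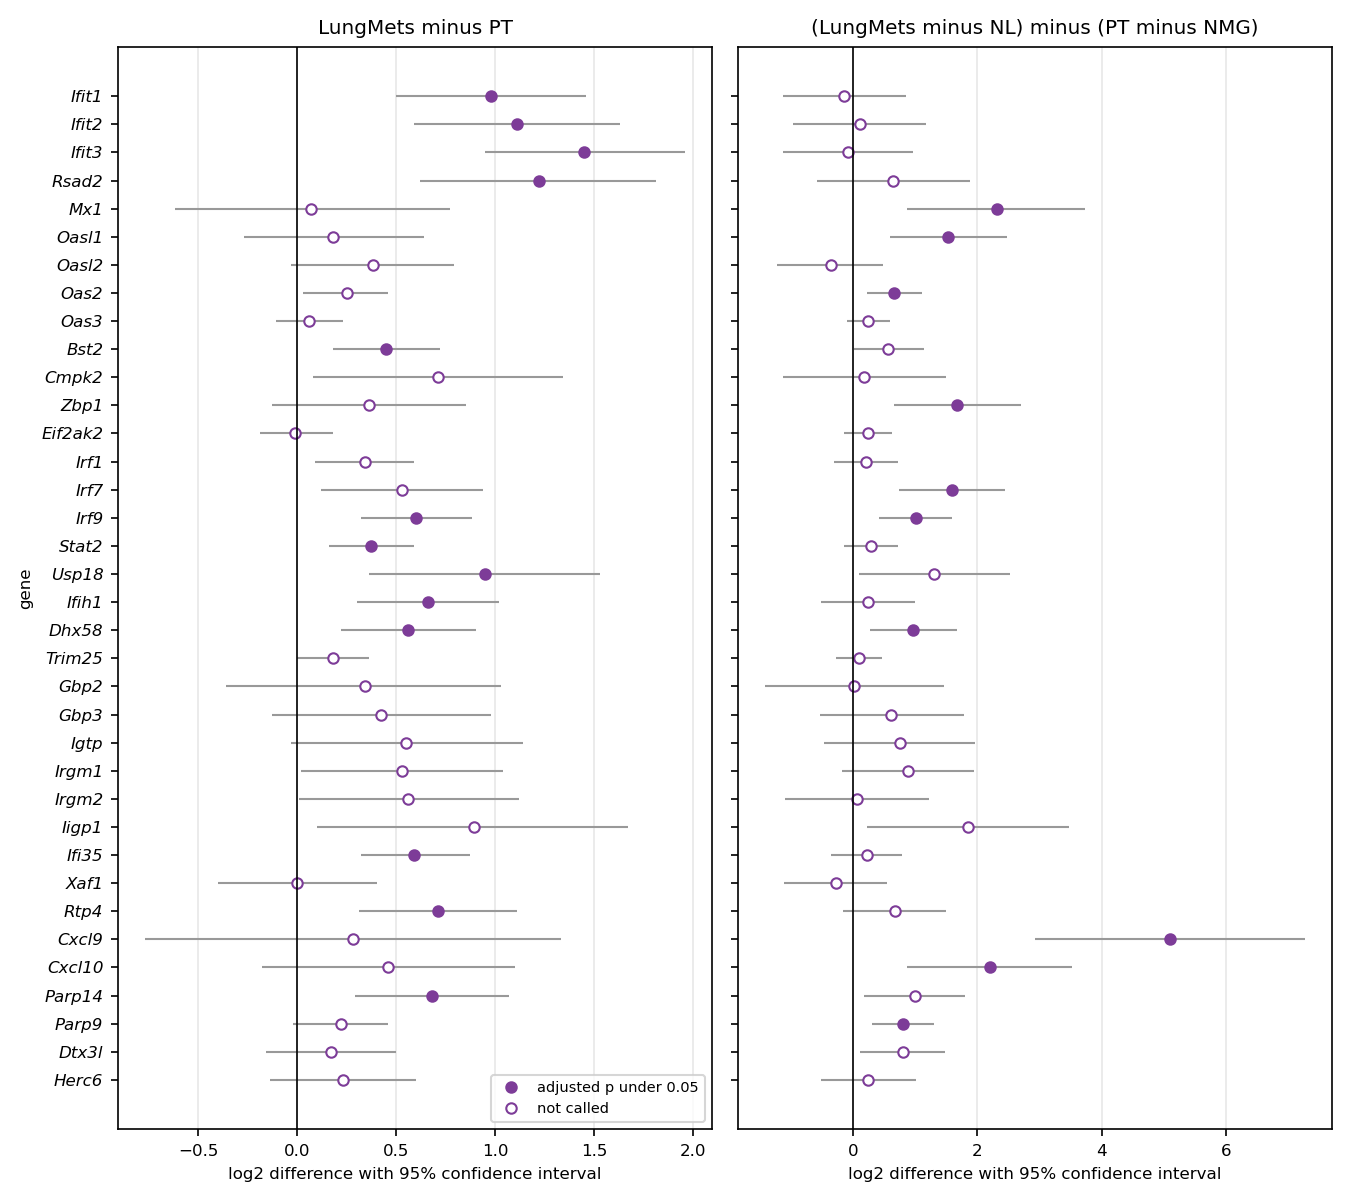
Log2 difference (x axis) with its 95% confidence interval for each of the 36 genes (y axis), for LungMets minus PT on the left and for the difference of LungMets from NL minus that of PT from NMG on the right, with separate x axes. Filled points are called at adjusted p under 0.05 in limma, 13 on the left and 10 on the right, and all of them lie above 0.

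The 2 date batches that hold both groups gave the same direction for most members but not the same calls. The median difference was 0.38 in the first batch and 0.50 in the second, and 31 of 36 members were above 0 in both. In the first batch 8 members were called, where 1392 of all 18193 genes were. In the second 0 were called, as were 0 of all genes, and an unadjusted p under 0.05 was found for 11 members and for 2669 of all genes. Without PT replicate 5 and LungMets replicate 9, the arrays with lung markers out of place, 1 member was called in the second batch, Ifit3, with a difference of 1.52 (adjusted p = 0.0431), where 1080 of all genes were called, a larger share than that of the members. With date batch as a block Ifit3 stayed at 1.45 (adjusted p = 0.00048) and Rsad2 at 1.22 (adjusted p = 0.00715). In the fit over both batches, every member called over all arrays kept its call without PT replicate 5 and LungMets replicate 9.

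Markers of lung and of vessels moved in the same comparison. Of the lung epithelium markers 9 of 10 were higher in LungMets than in PT, and of the endothelium markers 7 of 7. Of the macrophage markers 2 of 10 were called higher and all 10 differences were above 0, with a mean of 6.79 to 7.97 in PT and 7.76 to 8.82 in LungMets. Of 3 markers of all leukocytes 0 were called, but all 3 differences were above 0 and their median was 0.71, larger than the 0.45 of the members. The part of these cells in the interferon result was not tested, and in bulk tissue fewer cells of a type and less RNA per cell cannot be told apart. The position of LungMets between tumor and host can be given directly. The LungMets mean lay above both PT and NL for 22 members, where 18.4% of all genes did so, and between the PT and NL means for 13, each above PT, where 27.8% of all genes lay between and above PT and 36.2% between and below it. Of the 13 called members 9 lay between PT and NL (Ifit2, Ifit3, Irf9, Stat2, Usp18, Ifih1, Dhx58, Ifi35 and Parp14) and 4 lay above both (Ifit1, Rsad2, Bst2 and Rtp4).

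Among the other genes of the pathway, calls between LungMets and PT were all in the higher direction. Of 10 interferon genes 0 were called, with differences from -0.12 to 0.22. Of 9 receptors and kinases 4 were higher: Il10rb by 0.69, Ifngr1 by 0.50, Jak2 by 0.39 and Ifnar2 by 0.33 (adjusted p = 0.000776, 0.0114, 0.0309 and 0.0324). Of 10 sensors and adaptors Myd88 and Tlr7 were higher, of 7 negative regulators Irf2 and Ptpn6, and of 11 genes of MHC class I presentation Tapbp, B2m and Psmb10. Of 48 other interferon-induced genes 12 were higher and 0 lower, led by Ifitm1, a block to viral entry, by 1.36, the chemokine Ccl5 by 1.25, and Gbp7 and Serping1 by 0.98 each.

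Against the normal mammary gland, the primary tumors had less of many interferon genes. In PT 13 of 36 members were lower than in NMG and 2 were higher, where 21.0% of all genes were called lower and 26.7% higher. The median difference was -0.44, against 0.09 over all genes. All 4 transcription factors and all 4 RNA sensors and regulators were lower, and none of the 6 GTPases and neither chemokine was called. The other lower members were Oas2, Ifi35, Parp14, Parp9 and Eif2ak2, and the higher ones were Xaf1 and Oasl2. The difference of Eif2ak2 turned its sign in 1 of 36 settings.

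Usp18 fell furthest among the called members. Its values were 5.06, 6.66 and 7.81 in PT and 8.28, 8.13 and 8.22 in the 3 NMG, so that every PT lay below every NMG. It fell by 1.60 (SE 0.411, adjusted p = 0.00235). Parp14, an ADP-ribosyltransferase, had 6.52, 7.94 and 8.44 in PT and 9.10, 8.87 and 9.05 in NMG and fell by 1.35 (SE 0.274, adjusted p = 0.000237). Its groups did not overlap either. Irf1, the main factor of the gamma response, had 8.54, 9.15 and 9.48 in PT and 9.95, 10.11 and 10.07 in NMG, and fell by 0.91 (adjusted p = 0.000131). Irf7, which amplifies type I interferon, fell by 1.28, and Irf9 by 1.26, each with all 11 PT below all 3 NMG. Trim25, the ubiquitin ligase that activates RIG-I, fell by 0.43 and Parp9, the partner of Dtx3l, by 0.51, and for both the groups overlapped.

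Xaf1, an interferon-induced partner of the apoptosis inhibitor Xiap, went the other way by the largest amount of any member. Its values were 8.00, 8.97 and 9.59 in PT, 8.23, 8.76 and 9.56 in LungMets, 4.50, 4.51 and 4.64 in NMG and 5.13, 4.78 and 4.59 in NL. The difference of PT from NMG was 4.32 (SE 0.281, adjusted p = 6.56e-12) and that of LungMets from NL 4.03 (SE 0.288, adjusted p = 1.17e-10). The cultured cells were also high, at 7.78 in the monolayer and 8.86 in the spheres. The other probe set of Xaf1 gave the opposite order, with means of 6.65 in PT and 7.87 in LungMets against 8.37 in NMG and 9.01 in NL, and 5.51 and 6.12 in the cultured cells. The direction for Xaf1 therefore depends on the probe set read, and with the mean of its probe sets the differences were 1.30 for PT from NMG and 1.44 for LungMets from NL. Oasl2, a 2'-5'-oligoadenylate synthetase-like protein, had 5.54, 6.36 and 7.79 in PT and 5.05, 5.33 and 5.46 in NMG, all PT above all NMG, and rose by 1.02 (SE 0.289, adjusted p = 0.00506).

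Leukocyte markers were far higher in the normal mammary gland than in the tumors. The mean of the 3 leukocyte markers was 11.08 to 11.28 in NMG and reached a median of 8.60 and at most 10.06 in PT, and that of 5 B cell markers 9.46 to 9.59 and 4.17 to 7.69. All 3 leukocyte markers, 5 of 5 B cell markers, 8 of 9 T and NK cell markers and 6 of 7 endothelium markers were lower in PT, and their part in the lower interferon genes was not tested. In the rest of the pathway 7 of 9 receptors and kinases were lower in PT, led by Jak1 (-2.98, adjusted p = 2.92e-07) and Jak2 (-1.61, adjusted p = 5.48e-08), and 8 of 10 sensors and adaptors, led by Ddx58 (-1.11), which encodes RIG-I. Of 11 MHC class I genes 9 were lower, led by Tap2 (-1.99) and Nlrc5 (-1.67). Of 48 other interferon-induced genes 29 were lower and 6 higher, with Ccl5 at -4.99, Epsti1 at -4.52 and Oas1a at 2.82.

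LungMets were compared with normal lung to ask how the metastases differ from their host tissue. Here 10 members were higher, where 23.8% of all genes were, and 3 were lower, where 22.4% were. The median difference was 0.31, against 0.05 over all genes. The higher members were Mx1, Oasl1, Oas3, Gbp3, Cxcl9, Cxcl10, Bst2, Xaf1, Dtx3l and Zbp1, and the lower ones Irf1, Stat2 and Trim25. Both chemokines were higher. Cxcl9 had 7.37, 8.25 and 9.82 in LungMets and 5.31, 4.95 and 4.99 in NL, every metastasis above every lung, a rise of 3.39 (SE 0.754, adjusted p = 0.000679). Cxcl10 had 7.16, 8.09 and 9.17 in LungMets and 5.39, 5.74 and 5.30 in NL, again with no overlap, a rise of 2.71 (SE 0.462, adjusted p = 3.39e-05).

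Irf1 fell by 0.70 against normal lung (SE 0.179, adjusted p = 0.00251). Its values were 9.19, 9.36 and 9.94 in LungMets and 10.56, 10.02 and 9.91 in NL, with overlap at 1 array. Stat2 had 5.33, 5.63 and 5.97 in LungMets and 5.81 to 6.33 in NL, and fell by 0.41 (SE 0.152, adjusted p = 0.0286). That call was lost without NL replicate 1 (-0.27, adjusted p = 0.223) or NL replicate 3 (-0.44, adjusted p = 0.0616), and with each array centred on its median (-0.36, adjusted p = 0.0695). The call of Gbp3 (0.98, adjusted p = 0.048) held in 19 of 36 settings. That of Trim25 held in 28 of 36. Among the settings that lost it were the mean of all probe sets and leaving out NL replicate 1 or NL replicate 3. By its other probe sets Trim25 had means of 9.23 and 5.42 in LungMets, against 9.22 and 5.78 in NL. The call of Dtx3l, the ubiquitin ligase that works with Parp9, rests on 1 of its 2 probe sets, since the other had means of 7.77 in LungMets and 8.09 in NL. Upstream, 6 of 9 receptors and kinases were lower in LungMets than in NL, again led by Jak1 (-1.94, adjusted p = 0.000135), and 0 were higher.

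Against the mammary gland LungMets had 7 members higher, where 23.1% of all genes were, and 4 lower, where 17.9% were. The median difference was 0.02. Ifit1 had 7.60, 8.40 and 8.71 in LungMets and 6.78, 6.48 and 7.16 in NMG, without overlap, a rise of 1.48 (SE 0.344, adjusted p = 0.00127). Ifit3, Rsad2, Oasl2, Oas3, Bst2 and Xaf1 were the other higher members. Irf7 had 6.92, 7.62 and 7.94 in LungMets and 8.23, 8.10 and 8.54 in NMG. It fell by 0.75 (SE 0.295, adjusted p = 0.0446), a call that was lost without any 1 of the 3 NMG arrays. Irf9 had 6.94, 7.26 and 7.56 in LungMets and 8.01, 7.89 and 7.94 in NMG and fell by 0.66 (SE 0.203, adjusted p = 0.0114). The difference became -0.63 (adjusted p = 0.0509) once NMG replicate 1 was left out. Irf1 and Eif2ak2 were the other lower members. The other probe sets of Eif2ak2 had higher means in both tumor groups than in NMG, against the 1 read here.

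**Figure D3:**
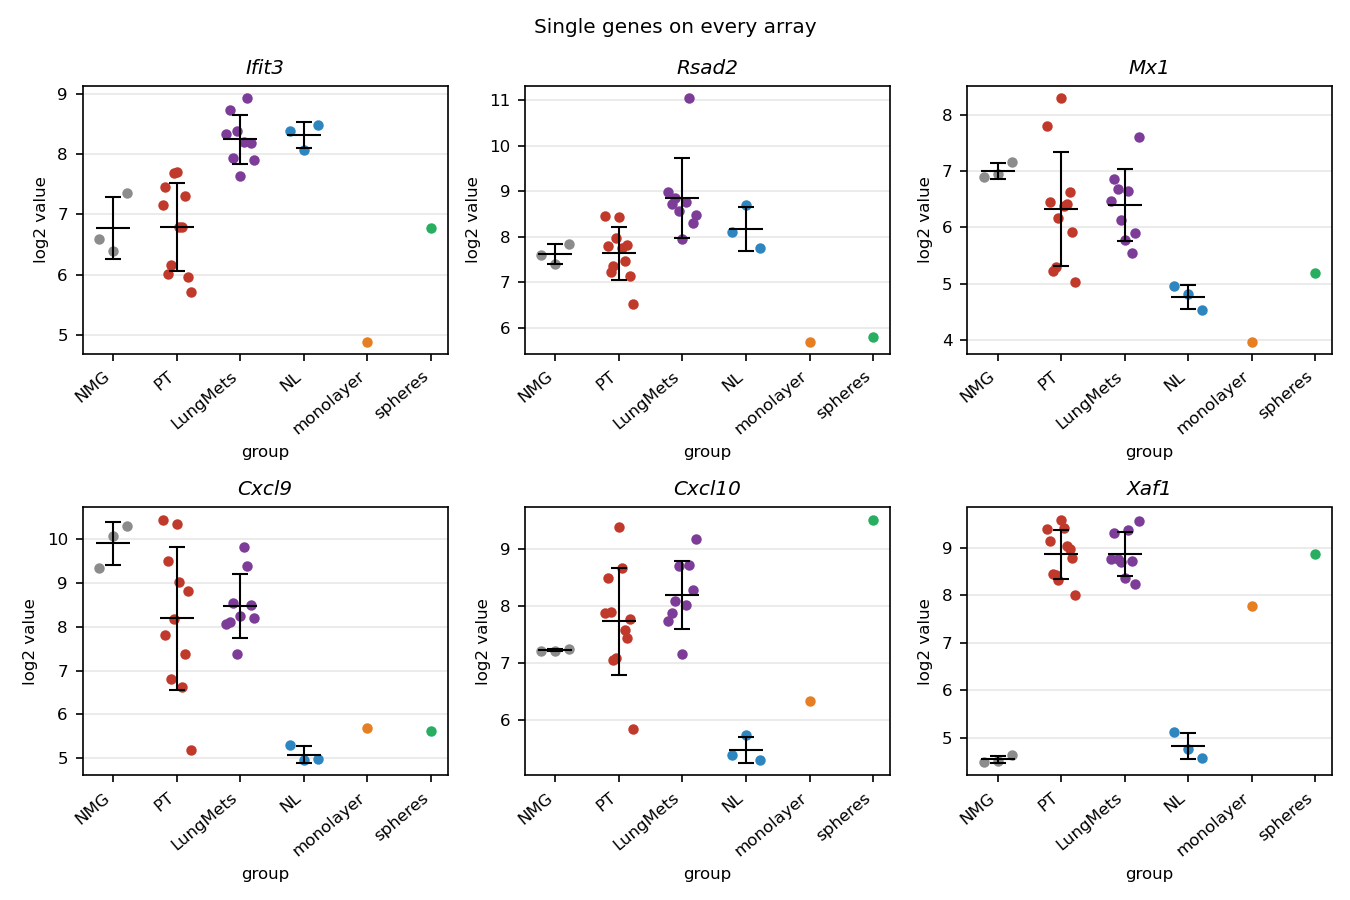
Log2 value (y axis, a separate scale for each gene) of 6 interferon response genes on every array, by group (x axis). Bars give the mean and SD of groups with more than 1 array. Cxcl9 and Cxcl10 are lowest in NL and widely spread in PT, Xaf1 is near 9 in both tumor groups by the probe set read here, and the LungMets array at 11.04 stands alone for Rsad2.

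Whether the tumor differed from its host tissue in the same way at both sites was tested as a difference of differences, LungMets minus NL against PT minus NMG. In this test 10 members were called above 0 and 0 below, where 10.1% of all genes were called above 0 and 9.68% below. A value above 0 means that tumor minus host was higher in the lung, not that LungMets lay above NL. The median over the members was 0.64, against -0.01 over all genes. Cxcl9 was furthest apart, at 5.10 (SE 1.05, adjusted p = 0.000918), since PT lay 1.71 below NMG in mean and LungMets 3.39 above NL. Mx1, a GTPase that traps viral nucleoproteins, differed by 2.31 (SE 0.696, adjusted p = 0.0195). Its values were 5.02, 6.37 and 8.29 in PT and 6.90, 6.94 and 7.16 in NMG, against 5.55, 6.46 and 7.60 in LungMets and 4.95, 4.82 and 4.53 in NL. The other 8 were Cxcl10 (2.20), Zbp1 (1.68), Irf7 (1.59), Oasl1 (1.53), Irf9 (1.01), Dhx58 (0.97), Parp9 (0.81) and Oas2 (0.66). Of these 8, Cxcl10, Zbp1 and Oasl1 were also called higher in LungMets than in NL. Irf7, Irf9, Dhx58, Parp9 and Oas2 were not called there. In mean, Irf9 and Dhx58 were lower in LungMets than in NL (-0.25 and -0.18), and PT lay further below NMG (-1.26 and -1.16).

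Only 3 NMG and 3 NL arrays carry the host side of this test. Without NL replicate 3 the count was 4 and without NMG replicate 3 it was 5, and the call of Mx1 was lost in both cases (2.19, adjusted p = 0.057, and 2.22, adjusted p = 0.0504). Leukocyte markers moved the same way, with 3 of 3 called and a median of 2.25, as did 3 of 5 B cell markers and 3 of 5 adipocyte markers. Their part was not tested. Of the other interferon-induced genes 12 of 48 were called above 0 in this test, with Epsti1 at 4.35 and Ccl5 at 3.75. Called below 0 were 2, Tnfsf10 at -2.51 and Ifitm2 at -0.70.

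Single metastases differed most in Rsad2, Cxcl9, Gbp2, Mx1, Cxcl10 and Zbp1, with SD of 0.88, 0.73, 0.69, 0.64, 0.60 and 0.58 over the 9 LungMets. A range over 2 log2 units was found for 4 members, Rsad2 (3.10), Cxcl9 (2.45), Mx1 (2.05) and Cxcl10 (2.01), against 6.87% of all genes. Without LungMets replicate 9, which had the highest Mx1 and Cxcl10, the count was 2. That array also differed from the other LungMets in lung epithelium markers (6.94, against at least 10.63) and in adipocyte markers (6.83, against at most 5.19). Rsad2 was 8.97, 8.71, 8.84, 8.56, 7.95, 8.76, 11.04, 8.30 and 8.48 in LungMets replicates 1 to 9, with replicate 7 alone above 9. Cxcl9 was 8.06, 8.12, 8.54, 7.37, 8.25, 9.82, 9.39, 8.50 and 8.21 in the same order, highest in replicates 6 and 7. Mx1 was 6.46, 6.85, 6.68, 6.12, 5.77, 6.65, 5.55, 5.89 and 7.60, so that replicate 7, the highest for Rsad2, was the lowest for Mx1. Cxcl10 was 7.73, 7.87, 8.09, 8.69, 7.16, 8.02, 8.71, 8.27 and 9.17, highest in replicate 9. Gbp2 was 10.20, 10.55, 9.46, 11.22, 9.49, 10.72, 11.37, 9.84 and 10.23, high in replicates 4 and 7. Zbp1, a sensor of Z-form nucleic acid that triggers cell death, was 6.33, 6.51, 6.22, 7.10, 5.56, 6.33, 7.23, 7.21 and 7.14, lowest in replicate 5.

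No single metastasis was the highest for most members. LungMets replicate 5 was the lowest for 18 of 36 members, where 12.2% of all genes had their lowest value there, and it was below the mean for all but 3. Replicate 6 was the highest for 13 members (18.1% of all genes), among them the GTPases Gbp3, Igtp, Irgm2 and Iigp1 and the chemokine Cxcl9. Replicate 9, labelled a metastasis but with few lung markers, was the highest for 10 (17.9% of all genes), among them Ifit1, Ifit2, Mx1, Usp18 and Cxcl10. Replicate 7 was the highest for 6 (16.3% of all genes). The leukocyte marker mean was lowest in replicate 5 at 8.48, 8.94 in replicate 6, 9.52 in replicate 7 and highest in replicate 9 at 9.95, with replicates 1 and 4 at 9.55 and 9.67. Proliferation markers in replicate 7 averaged 8.77, the lowest of the 9. These marker values are given as measured, and their part was not tested.

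The spread between primary tumors was wider than that between metastases. The SD was larger in PT than in LungMets for 30 of 36 members, against 52.9% of all genes, and the median SD was 0.61 in PT and 0.36 in LungMets, against 0.23 in both over all genes. The mean over the 36 members ran from 6.47 to 8.37 in PT and from 7.64 to 8.40 in LungMets. PT replicate 11 was the lowest for 29 members (10.2% of all genes), with Iigp1 at 6.37 against 10.77 in PT replicate 1 and Cxcl9 at 5.19 against 10.45. PT replicate 6 was the highest for 20 (13.0% of all genes), with Mx1 at 8.29, Oasl2 at 7.79 and Cxcl10 at 9.38. The leukocyte marker mean was 7.64 in PT replicate 11 and 8.21 in PT replicate 6, both below the PT median of 8.60. PT replicate 11 was the lowest PT for T and NK cell markers (4.32, median 5.20) and for B cell markers (4.17, median 6.07), and the part of these cells was not tested. Without PT replicate 11 the SD was larger in PT for 26 members (50.4% of all genes), with medians of 0.53 and 0.36. Within the first date batch, which does not hold it, this was so for 28 (47.2% of all genes), with medians of 0.48 and 0.21. Within the second batch without it the count was 24 (49.0% of all genes), and the medians were closer, at 0.53 and 0.45.

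**Figure D4:**
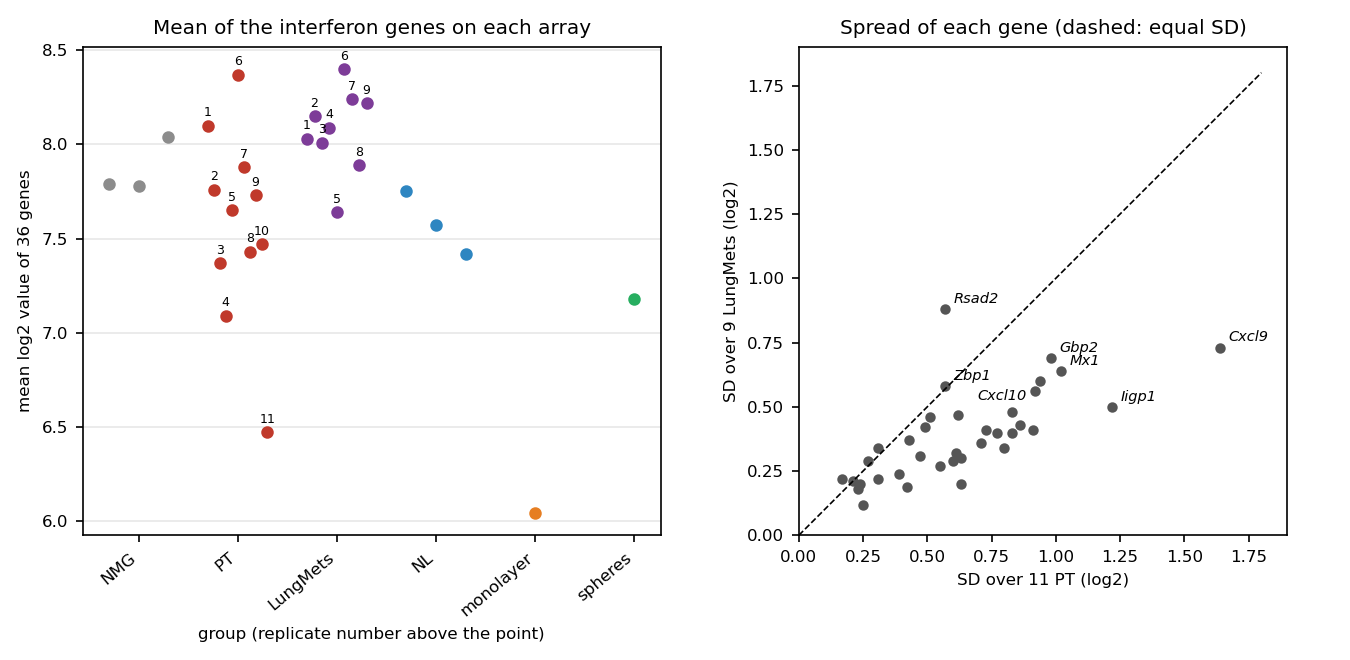
Left, the mean log2 value of the 36 interferon response genes on each array (y axis) by group (x axis), with replicate numbers over the PT and LungMets points. Right, the SD of each gene over 9 LungMets (y axis) against its SD over 11 PT (x axis), both in log2 units. PT replicate 11 is lowest among the tumors at 6.47, and most genes lie below the line of equal SD.

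In the cultured cells, 0 members were high, where high means that both arrays lay over 1 log2 unit above the PT mean, which 1.30% of all genes did. Irf1 was the 1 member with both arrays above every PT, at 9.52 in the monolayer and 9.97 in the spheres against a highest PT of 9.48, while 16.2% of all genes had both arrays above every PT. By the same limit 10 members were low in both, where 5.55% of all genes were: Rsad2, Mx1, Oasl1, Oasl2, Ifih1, Cxcl9, Parp14, Parp9, Dtx3l and Cmpk2. Cmpk2, the mitochondrial nucleotide kinase next to Rsad2 in the genome, was 3.27 and 3.42, under the level of absent genes, against 5.25 in the lowest PT. Cxcl9 was 5.69 and 5.61, against a PT mean of 8.20. By its second probe set Cmpk2 was 4.71 and 4.80, above the level of absent genes, against a PT mean of 5.13. The second probe set of Cxcl9 was 5.41 and 5.11, against a PT mean of 5.20. By its second probe set Parp14 was 4.21 and 4.12, against a PT mean of 4.87. Rsad2 was 4.31 and 4.43 by another probe set, against 5.04, and 3.36 and 4.32 by a further one, against 5.44. Dtx3l stayed low by its second probe set, at 5.61 and 6.12 against 7.42. For Cmpk2, Cxcl9, Parp14 and Rsad2 the low call therefore depends on the probe set read. Each culture gave 1 array, so these are values without a test or an error.

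The monolayer and the spheres also differed from each other. The spheres were above the monolayer for 32 of 36 members (53.4% of all genes), with a median difference of 0.97 against 0.03 over all genes. Spheres exceeded the monolayer by over 1 log2 unit for 17 members, where 2.91% of all genes did, and lay over 1 unit below for Herc6 alone, where 5.21% of all genes did. This count was made after the values had been seen. The 17 were all 6 GTPases, Ifit1, Ifit2, Ifit3, Mx1, Bst2, Irf9, Stat2, Usp18, Cxcl10, Xaf1 and Rtp4. In the monolayer and the spheres Ifit2 was 3.79 and 7.50, Iigp1 4.67 and 8.16, Ifit1 4.61 and 8.05, and Cxcl10 6.34 and 9.51. In contrast Rsad2 (5.69 and 5.80), Oasl2 (3.69 and 4.05), Cmpk2, Parp9 (7.63 and 7.59) and Cxcl9 differed by at most 0.35. By its other probe sets Rsad2 was 3.36 and 4.32, and 4.31 and 4.43, so its difference depends on the probe set. Oasl2, and Cmpk2 by the probe set read, lay under the level of absent genes in both cultures, where a difference could hardly be seen. Herc6 was lower in the spheres by the probe set read (6.46 and 5.44) and not by another of its probe sets (6.41 and 6.48).

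Set against the tumors, the monolayer was below every PT for 23 members (14.7% of all genes) and had a median difference from the PT mean of -1.38, where all genes had 0.13. In the monolayer Ifit2, Mx1, Oasl2 and Usp18 lay under the level of absent genes, as did Cmpk2 by the probe set read. The spheres were below every PT for 10 members (18.3% of all genes) and above every PT for 5, Ifit2, Irf1, Stat2, Cxcl10 and Bst2 (31.0% of all genes), with a median of -0.15. Against the 4 PT of the same date batch the medians were -1.41 and -0.16. Ptprc, the pan-leukocyte marker CD45, was 3.39 in the monolayer and 3.18 in the spheres, and macrophage markers averaged 4.72 and 4.96 against 6.79 in the lowest PT. Ptprc was thus under the level of absent genes in both cultures.

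The interferon genes, receptors and sensors were also compared between the cultures, apart from the members Irf9 and Stat2 given among the 17 above. Of 10 interferon genes, 9 receptors and kinases and 10 sensors and adaptors 0 differed by over 1 log2 unit between spheres and monolayer, and Ifnb1 was 4.06 in the monolayer and 4.33 in the spheres, near the level of absent genes. Of 7 negative regulators Socs3, a feedback inhibitor of cytokine receptors, was higher in the spheres (8.36 and 10.55). Of 48 other induced genes 7 were over 1 unit higher in the spheres, among them Gbp6 (5.37 and 8.21), Irf8 (4.56 and 6.58) and Cxcl11 (6.07 and 7.97), and 2 were over 1 unit lower. Of 11 MHC class I genes 4 were higher, H2-K1, H2-D1, Tap1 and Nlrc5, and Psmb10 was lower. Proliferation markers averaged 10.54 in the monolayer and 7.34 in the spheres, and the part of this difference in growth state was not tested.

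**Figure D5:**
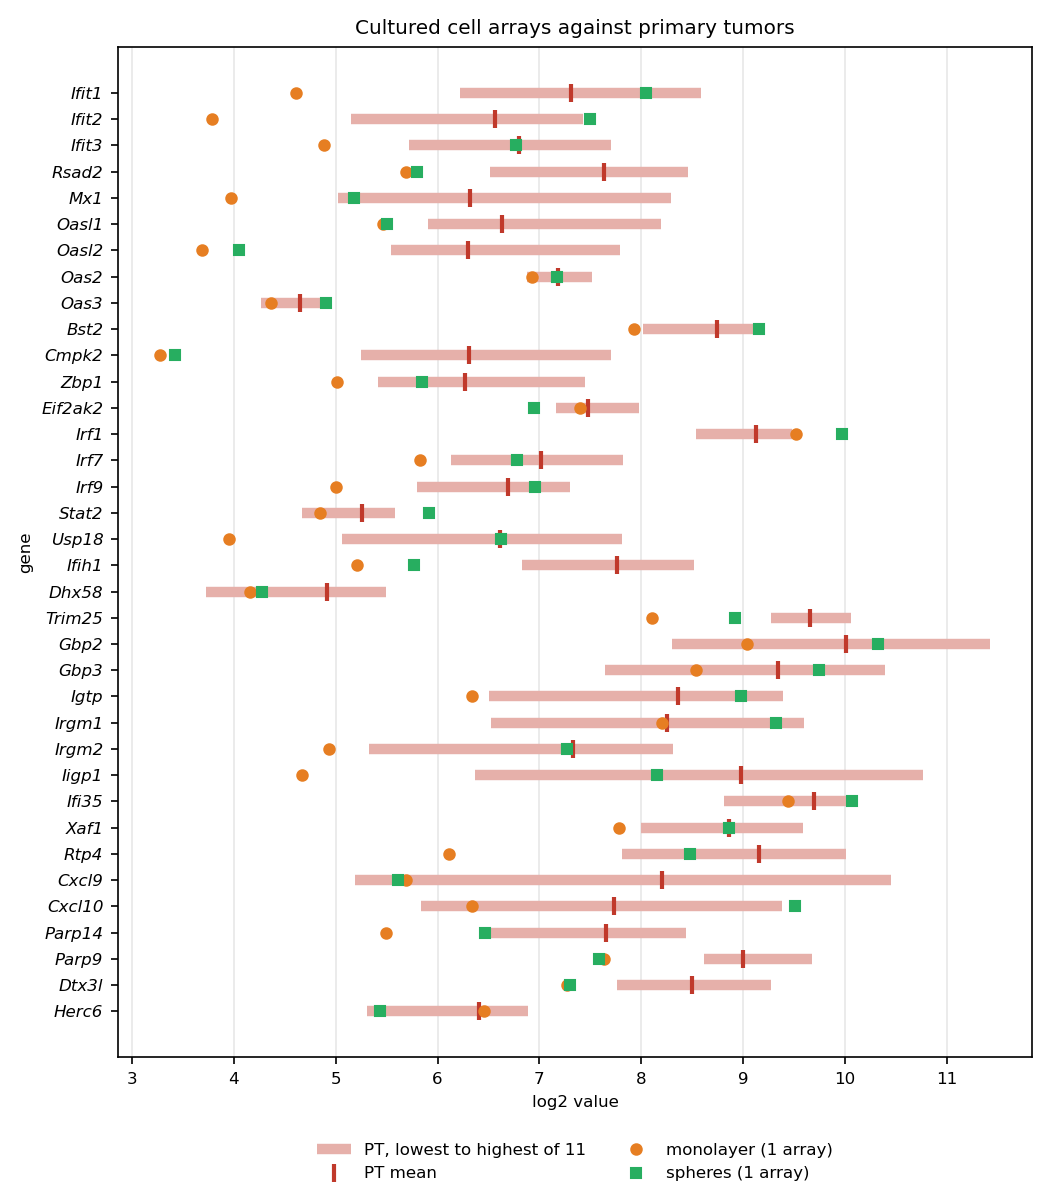
Log2 value (x axis) of each of the 36 genes (y axis) in the monolayer (circles) and the spheres (squares), 1 array each, with the range of the 11 PT (bars) and their mean (ticks). The spheres lie to the right of the monolayer for 32 genes, and Irf1 is the 1 gene with both cultures right of the PT range.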

How the data were processed

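The log2 values were deposited by the authors, who hybridized labelled RNA to Affymetrix arrays (GeneChip HT 3' IVT Express labelling) and normalized the probe sets by RMA in Partek 6.6. RMA sets all arrays to a common distribution, so a shift shared by most genes would not be seen. Arrays give no read depth, and their number limits the precision. Of 45101 probe sets, 34945 with 1 gene symbol were used, for 18193 genes, and probe sets with several symbols (932), no entry (9211) or a control role (13) were left out. Groups came from the labels. A linear model over the 26 tissue arrays with 1 mean per group was fitted to all genes in limma 3.58.1 (R 4.3.3), with moderated variance and Benjamini-Hochberg adjustment over all genes, and called at an adjusted p under 0.05. In data simulated for 18193 genes, shifts of 0.5 and 1 log2 units were recovered for 58.2% and 92.5% of shifted genes for LungMets against PT, 35.8% and 86.6% for PT against NMG, 26.9% and 77.6% for LungMets against NL, 32.8% and 77.6% for LungMets against NMG, and 14.9% and 67.2% for the difference of differences. Each simulation shifted 67 genes by each of these sizes, in normal noise with 1 spread per gene for all groups. In the real data far more genes were called and the spread differed between groups, so these rates need not hold there. The other tables were made with Python 3.11.15, pandas 2.3.3 and numpy 2.4.6, and the figures with matplotlib 3.10.9.

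The members and the gene lists were chosen with earlier results of these data known. Members described in full were the 2 largest rises and 2 largest falls called in each comparison, the 6 with the largest SD over LungMets and the member with the highest mean of each role. Other genes are named where a count or a role needed it, after their values were seen. Other lists were described by up to 4 called genes. The cultured cells, with 1 array each, have no test. Alternatives were the mean of all probe sets of a gene, other scalings, array weights, a fold limit, other models, date batch and replicate number as blocks, and each array left out in turn. The values against the PT of the first batch, the count of spheres over monolayer, the second batch without the 2 arrays with lung markers out of place, and the spread in subsets were added after seeing the data. Promoters are those of RefSeq on GRCm38.p6.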

Additional observations from a re-analysis of the deposited data

Results flagged for a closer look

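Rsad2 reached 11.04 in LungMets replicate 7, far from the next value of 8.97 in the same group. It was the 1 array found to stand apart among 36 genes tested over the 9 LungMets, and chance marks about 1 in 20 such groups.

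The difference between tumor and host tissue was not the same at the lung and the mammary site for 10 members by a test of that difference itself. These were Cxcl9 (5.10), Mx1 (2.31), Cxcl10 (2.20), Zbp1 (1.68), Irf7 (1.59), Oasl1 (1.53), Irf9 (1.01), Dhx58 (0.97), Parp9 (0.81) and Oas2 (0.66), in log2 units. For each, tumor minus host was higher at the lung site, which need not mean that LungMets lay above NL. The call of Dhx58 held in 11 of 34 settings.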

How the results depend on the processing

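The called differences given in full kept their direction, and 555 of 581 settings stayed on the same side of the threshold, but the second probe set of Xaf1 read alone turns its direction. Of differences that were not called between LungMets and PT, Mx1 turned its sign in 10 of 40 settings and Cxcl9 in 3, with -0.62 in the first date batch. With a fold over 2 also required, the members called were 7 in place of 15 for PT against NMG, 3 in place of 13 for LungMets against PT, 6 in place of 13 for LungMets against NL and 5 in place of 11 for LungMets against NMG, and all genes called also fell, to 3137, 564, 2961 and 2422. Array weights gave 20 for LungMets against NL, 21 for LungMets against NMG and 17 in place of 10 for the difference of differences, and calls over all genes rose too, from 8407 to 10943, from 7465 to 10151 and from 3599 to 6211. Within the first date batch 8 were called for LungMets against PT, within the second 0, and 1 in the second without PT replicate 5 and LungMets replicate 9. Leaving out 1 array at a time gave 13 to 17 for PT against NMG, 13 to 15 for LungMets against PT, 10 to 15 for LungMets against NL, 7 to 15 for LungMets against NMG, lowest without NMG replicate 2, and 4 to 11 for the difference of differences. With a replicate block the counts were 16, 13, 16, 18 and 14 in that order of comparisons, and those over all genes 8572, 2816, 8973, 7955 and 4479. The replicate numbers were not taken to pair the samples: over 9 pairs of PT and LungMets the correlation of deviations ran from -0.23 to 0.48, with 7 over 0.1, and 0 samples matched best with their own number. In the cultures, 1 member was high when both arrays had to pass every PT, as 16.2% of all genes did, and 6 were low with arrays centred on their median. A range over 2 in LungMets was found for 2 members without replicate 9 and 0 in the first batch. The cause was not tested for any of these.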
